A study of Mus musculus with 79 samples.

Results

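The medial prefrontal cortex (mPFC) and the ventral hippocampus (vHipp) were compared at baseline, in mice that had been neither stressed nor given ketamine. The comparison used the 20 libraries of 79 whose labels name a control (CTRL) mouse injected with saline, 10 from the mPFC and 10 from the vHipp. Both regions came from the same 10 mice, matched by the animal number in the label. The animals were non-sibling male CD-1 (ICR) wild-type mice, 9 to 10 weeks old and housed 4 to a group, that were not defeated and received a single intraperitoneal saline injection. The injection fell within a stay in the Social Box (SB), an enriched arena for groups of mice, from which they were taken out for it. Tissue was taken 7 days after the injection as 1 mm punches from frozen brain sections, so each library holds the mixture of neurons, glia and vessels in a punch. The other 59 libraries came from CTRL mice given ketamine and from mice exposed to chronic social defeat stress (CSDS) and given saline or ketamine. They served here to examine the same regional difference in other animals.

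The mPFC is a layered neocortical area that projects to limbic, striatal and brainstem targets and takes part in the control of emotion and behavior. The vHipp is the part of the hippocampal formation most tied to anxiety and stress, built from the granule cells of the dentate gyrus and the pyramidal cells of the CA fields, and it sends a direct projection to the mPFC. Both derive from the embryonic pallium, where transcription factors set the identity of cortical layers and hippocampal fields.

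Total counts of the 20 libraries ranged from 11726129 to 25809032 in the mPFC (median 19557124) and from 18019933 to 37421747 in the vHipp (median 20156845.5). The vHipp library was the deeper one in 6 of 10 mice (exact paired permutation test, two-sided, p = 0.0781). The share of counts on mitochondrial genes was 3.31% to 4.82% in the mPFC and 2.96% to 4.27% in the vHipp, and it was lower in the vHipp of 9 of 10 mice (exact paired permutation p = 0.00977). The first principal component carried 58.0% of the variance of log2 CPM (counts scaled to a common library size of 1e6 by edgeR's TMM factors) and separated all mPFC from all vHipp libraries. The vHipp library of mouse 30 lay closest to the mPFC on this component. The mPFC libraries of mice 24 and 30 had the most meningeal marker RNA, and that of mouse 22 the most oligodendrocyte marker RNA, with values given beside those lists.

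At baseline, the regions differed in a large share of the genes tested. Of 26911 genes, 4850 were higher in the vHipp (18% of those tested) and 5187 were higher in the mPFC (19.3%), by edgeR's quasi-likelihood test with the mouse as a block and a Benjamini-Hochberg adjusted p under 0.05. With a difference of at least 2-fold in addition, 1164 genes were higher in the vHipp (4.33%) and 1505 in the mPFC (5.59%). At least 16-fold differences were found for 65 and 68 genes. The ranges of the 10 libraries did not overlap for 1092 genes higher in the vHipp (4.06%) and 1286 genes higher in the mPFC (4.78%). Log2 fold changes (LFC) are given throughout as vHipp minus mPFC ± SE, so that a negative LFC is a higher level in the mPFC, and their median over all genes tested was -0.00887. The SE is an approximation, the absolute LFC divided by the square root of the test's F statistic. It can be too small for genes near 0 counts in a region.

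Most differences were small. Among the 12398 genes with a mean of at least 5 CPM in a region, 6905 passed the test (55.7%), while the median absolute LFC was 0.17. Protein-coding genes made up 776 and 957 of the genes at least 2-fold higher in the vHipp and in the mPFC, and long noncoding or unclassified genes 319 and 468. Of 16718 protein-coding genes tested, 49.7% passed the test in either direction. Counts of list members given below are to be read beside this share, since it is above that of all genes. Leaving out each mouse in turn gave 9223 to 10023 genes past the adjusted p, beside 10037 with all mice. Without mice 22, 24 and 30 together, 8520 genes passed, 2484 of them with at least a 2-fold difference, beside 2669 with all mice.

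**Figure D1:**
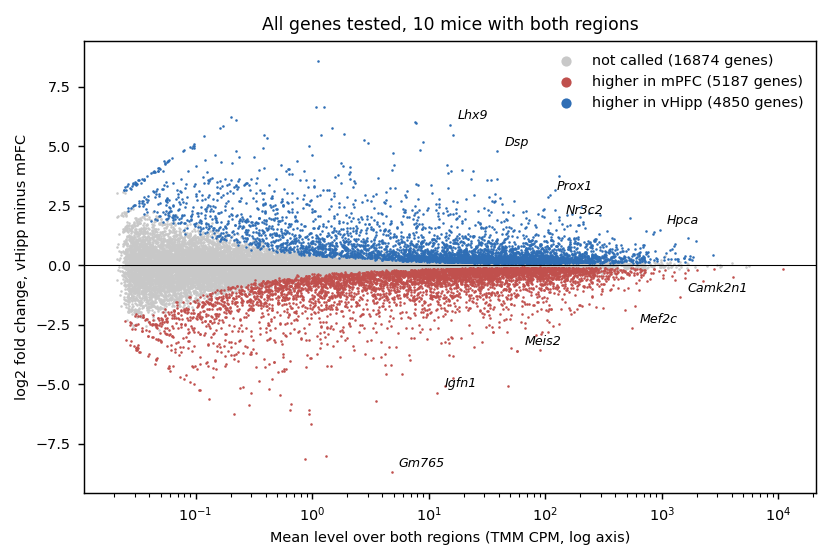
Each point is 1 of 26911 genes, with its mean level over both regions on the x axis (TMM CPM, log axis) and the LFC of vHipp minus mPFC on the y axis. Genes higher in the vHipp (blue, 4850) and in the mPFC (red, 5187) spread on both sides of 0 at all levels, and grey genes did not pass the test.

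Transcription factors that pattern the forebrain were among the genes that separated the regions most sharply. Of the 60 in the list, 23 were higher in the vHipp and 32 were higher in the mPFC, and 12 and 15 of these had ranges that did not overlap (median LFC -0.27). Lhx9, a LIM homeodomain factor (ENSMUSG00000019230, chr1:138825186-138848577, GRCm38), had levels of 0.109 to 1.18 CPM (median 0.430) in the mPFC and 21.3 to 38.7 CPM (median 30.3) in the vHipp. The lowest vHipp library was thus far above the highest mPFC library (LFC = 5.90 ± 0.16, adjusted p = 1.81e-13).

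Prox1 specifies and maintains dentate granule cells (ENSMUSG00000010175, chr1:190118035-190170714). Its level was 16.9 to 32.3 CPM (median 23.9) in the mPFC and 100.9 to 288 CPM (median 214) in the vHipp (LFC = 2.96 ± 0.19, adjusted p = 2.61e-09). Zbtb20, a zinc finger repressor required for hippocampal pyramidal identity, reached 291 to 658 CPM (median 495) in the vHipp and 69.1 to 193 CPM (median 103.7) in the mPFC (LFC = 2.11 ± 0.16, adjusted p = 1.93e-08). Neither gene had overlapping ranges. Nr2f2, an orphan nuclear receptor enriched in ventral parts of the hippocampus, showed 41.8 to 76.3 CPM (median 58.2) in the vHipp and 8.85 to 21.8 CPM (median 11.4) in the mPFC (LFC = 2.23 ± 0.08, adjusted p = 2.68e-12), again without overlap, while its paralog Nr2f1 was lower in the vHipp by a small margin (LFC = -0.16 ± 0.05, adjusted p = 0.00998). Dmrt3, a doublesex-related factor, had 2 counts in all mPFC libraries together and 174 in the vHipp libraries, a ratio per total count of 73.5 (95% exact interval 20.04 to 612, counting error only). Further factors higher in the vHipp were Neurod1 (LFC = 1.11 ± 0.08), Emx2 (0.81 ± 0.08), Lmo3 (1.74 ± 0.09) and Nfib (1.03 ± 0.04), which act in neuronal differentiation or early pallial patterning.

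Whether reads were counted by strand is not given in the sources used here, so reads of overlapping genes could have been shared. Among the genes named here, those that overlap a gene with a mean of at least 5 CPM in either region on the opposite strand include Gabra5, Gabra4, Homer3, Kcnh7, Kcnk3, Map3k15, Emx2, Nr2f1, Nr3c2, Prox1, Zic1, Draxin, 2310002F09Rik and C730002L08Rik, and those that overlap one on the same strand include Zbtb20, Lmo4, Grm5 and Neurod1.

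Mef2c, an activity-regulated factor of cortical neurons (ENSMUSG00000005583, chr13:83504034-83667080), was also abundant in absolute terms. It measured 856 to 1073.3 CPM (median 973) in the mPFC and 100.5 to 199.8 CPM (median 169) in the vHipp (LFC = -2.64 ± 0.09, adjusted p = 1.63e-12), with every mPFC library above every vHipp library. Meis2, a homeodomain factor, showed 87.4 to 124.7 CPM (median 105.05) in the mPFC and 4.01 to 13.9 CPM (median 9.63) in the vHipp (LFC = -3.58 ± 0.19, adjusted p = 2.53e-10), and Cux2, which marks upper cortical layers, showed 124.9 to 276 CPM (median 192) in the mPFC and 26.1 to 53.9 CPM (median 32.3) in the vHipp (LFC = -2.53 ± 0.08, adjusted p = 1.59e-12). Ranges were separate for both. Tbr1, the deep-layer corticothalamic factor, had 115.3 to 205 CPM (median 169) in the mPFC and 30.8 to 56.1 CPM (median 47.4) in the vHipp (LFC = -1.83 ± 0.06, adjusted p = 1.65e-12), whereas Foxp2, another deep-layer factor, overlapped between regions at 1.86 to 15.3 CPM (median 7.89) in the mPFC and 0.584 to 3.31 CPM (median 1.11) in the vHipp (LFC = -2.12 ± 0.34, adjusted p = 7.50e-05). Tshz3 (LFC = -1.82 ± 0.10), Pou3f2 (-1.91 ± 0.07), Zic1 (-1.75 ± 0.16) and Lmo4 (-1.01 ± 0.05) were higher in the mPFC as well.

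**Figure D2:**
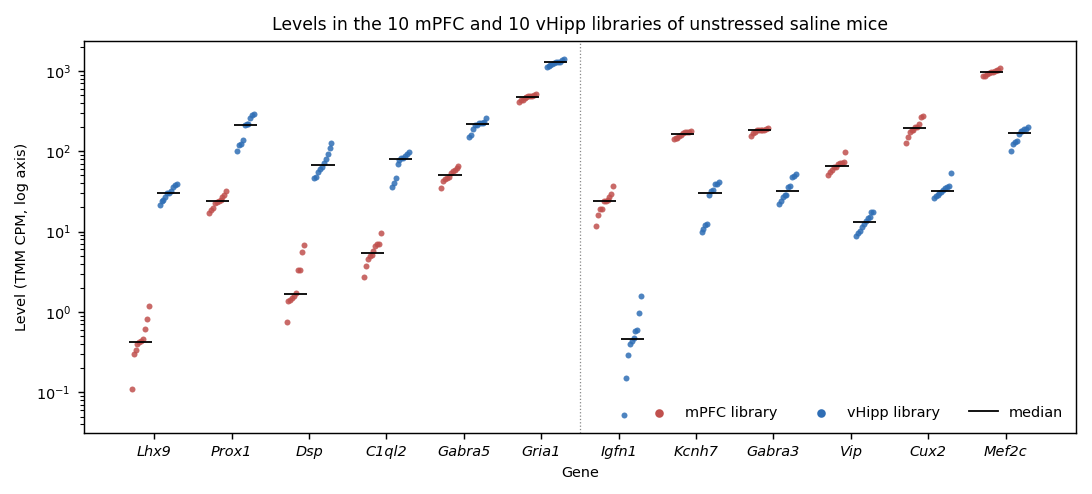
Levels of 12 genes (TMM CPM, log axis) in the 10 mPFC (red) and 10 vHipp (blue) libraries, with a line at each median. The 6 genes on the left were higher in the vHipp and the 6 on the right were higher in the mPFC, and for none of the 12 do the libraries of the regions overlap.

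Upstream sequences are shown for 4 genes whose levels set the regions apart, a pair of transcription factors (Prox1 and Mef2c) and a pair of GABA-A receptor subunits (Gabra5 and Gabra3) with opposite directions within each pair. The 250 bases before the RefSeq start furthest upstream are printed 5′ to 3′ on the gene's strand, taken from GRCm38.p6. RefSeq gave 2 starts for Prox1, 3 for Mef2c, 1 for Gabra5 and 2 for Gabra3, and which of them these tissues use was not tested. They lie at chr1:190170828-190171077, minus strand for Prox1, chr13:83503784-83504033, plus strand for Mef2c, chr7:57510060-57510309, minus strand for Gabra5 and chrX:72656920-72657169, minus strand for Gabra3. No exon of the GENCODE M21 annotation lies in these windows. Capitals mark any of the 6 motifs searched for on both strands, namely TATAAA (the core of a TATA box), CAGCTG (an E box), CAGATG (another E box), TAATTA (a homeodomain core), GGGCGG (a GC box) and CCAAT (a binding motif of NF-Y). No marked match overlaps another.
Prox1: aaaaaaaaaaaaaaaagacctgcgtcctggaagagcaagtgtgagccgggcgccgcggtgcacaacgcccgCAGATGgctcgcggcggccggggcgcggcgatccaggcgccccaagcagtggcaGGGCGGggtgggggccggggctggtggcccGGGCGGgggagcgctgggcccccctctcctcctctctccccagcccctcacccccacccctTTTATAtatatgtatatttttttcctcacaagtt
Mef2c: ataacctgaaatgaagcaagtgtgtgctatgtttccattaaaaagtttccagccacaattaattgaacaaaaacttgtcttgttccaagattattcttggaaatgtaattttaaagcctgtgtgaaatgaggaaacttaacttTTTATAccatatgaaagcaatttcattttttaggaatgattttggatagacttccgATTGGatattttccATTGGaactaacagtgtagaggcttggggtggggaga
Gabra5: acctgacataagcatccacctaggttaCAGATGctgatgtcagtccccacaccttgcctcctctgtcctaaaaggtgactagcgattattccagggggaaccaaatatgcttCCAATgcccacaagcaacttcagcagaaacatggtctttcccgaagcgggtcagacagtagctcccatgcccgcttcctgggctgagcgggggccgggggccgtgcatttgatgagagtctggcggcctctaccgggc
Gabra3: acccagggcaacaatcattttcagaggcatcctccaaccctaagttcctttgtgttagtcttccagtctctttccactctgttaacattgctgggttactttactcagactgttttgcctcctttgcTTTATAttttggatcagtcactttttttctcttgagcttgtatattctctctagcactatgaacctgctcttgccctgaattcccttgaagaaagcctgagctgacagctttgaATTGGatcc

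The Prox1 window (GC content 64.8%) held GGGCGG as well as CAGATG, and also TATAAA when read on the other strand. The Mef2c window (33.6% GC) held CCAAT and TATAAA, both on the other strand. In Gabra5 (56.4% GC) CAGATG and CCAAT were found, and in Gabra3 (42.4% GC) TATAAA and CCAAT on the other strand. In the 300-base RefSeq windows (250 before to 50 after the start) of 14718 genes tested, GGGCGG occurred in 55.9% of windows, against 43.3% for genes at least 2-fold higher in the vHipp and 42.5% for genes at least 2-fold higher in the mPFC. TATAAA occurred in 8.73%, 11.6% and 13.7% of the same sets, CAGCTG in 16.3%, 21.2% and 17.3%, and CAGATG in 13.6%, 15.4% and 17.1%. For TAATTA the shares were 3.19%, 4.37% and 5.54%, and for CCAAT 37.96%, 35.3% and 35.6%. Median GC content was 59.0% over all windows, 56.0% for the vHipp set and 55.0% for the mPFC set. These shares describe letters in the windows, and base composition moves with them.

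Markers of the hippocampal fields were compared next, beginning with the dentate gyrus. Of 13 dentate gyrus markers tested, 11 were higher in the vHipp and 2 in the mPFC (median LFC 2.15). Their summed level was 466.5 to 537 CPM (median 480.4) in the mPFC and 659 to 1514 CPM (median 1157) in the vHipp, higher in the vHipp of 10 of 10 mice and without overlap. In bulk samples, more cells of a type cannot be told apart from more RNA per cell, here and in every list that follows.

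Dsp, the desmosomal plaque protein desmoplakin, was the dentate marker with the largest difference. Its range was 46.0 to 125.1 CPM (median 67.1) in the vHipp and 0.761 to 6.90 CPM (median 1.67) in the mPFC (LFC = 4.78 ± 0.26, adjusted p = 3.89e-10). C1ql2, a secreted C1q-like synaptic organizer of mossy fibers, had 36.4 to 98.6 CPM (median 79.5) in the vHipp and 2.70 to 9.61 CPM (median 5.44) in the mPFC (LFC = 3.62 ± 0.15, adjusted p = 1.67e-11). The ranges of both genes were separate. Tdo2, which starts tryptophan breakdown along the kynurenine pathway, measured 4.41 to 14.3 CPM (median 9.50) in the vHipp and 0.164 to 0.947 CPM (median 0.482) in the mPFC (LFC = 4.20 ± 0.22, adjusted p = 2.26e-10), and Lct, the brush border lactase, 23.5 to 63.0 CPM (median 32.9) in the vHipp and 1.26 to 4.36 CPM (median 1.89) in the mPFC (LFC = 3.99 ± 0.22, adjusted p = 3.28e-10). The 2 dentate markers higher in the mPFC were C1ql3 (LFC = -0.50 ± 0.14) and Pdzd2 (-0.28 ± 0.07), which cortical neurons also express.

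Of the 10 CA3 markers, 7 were higher in the vHipp, 1 was higher in the mPFC and 2 did not pass the test (median LFC 0.61). Iyd, an iodotyrosine deiodinase, had 2.26 to 6.81 CPM (median 3.83) in the vHipp and 0.102 to 0.757 CPM (median 0.225) in the mPFC (LFC = 3.86 ± 0.22, adjusted p = 4.89e-10), and Homer3, a postsynaptic scaffold, had 45.6 to 97.1 CPM (median 72.3) in the vHipp and 7.79 to 16.9 CPM (median 8.60) in the mPFC (LFC = 2.84 ± 0.14, adjusted p = 1.30e-10). Neither overlapped. Coch, an extracellular matrix protein, went the other way at 34.3 to 84.6 CPM (median 47.0) in the mPFC and 1.11 to 14.2 CPM (median 6.52) in the vHipp (LFC = -3.21 ± 0.28, adjusted p = 9.52e-08). Summed CA3 markers overlapped between the regions, at 680.1 to 830.0 CPM (median 730.0) in the mPFC and 671 to 1424 CPM (median 1058.8) in the vHipp.

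The CA1 list did not follow its name. Of 7 tested members, 5 were higher in the mPFC and 2 in the vHipp (median LFC -0.95). Those higher in the mPFC were Ccn3, a matricellular protein (-2.88 ± 0.37), Mpped1 (-2.06 ± 0.16), Wfs1, the endoplasmic reticulum protein wolframin (-1.85 ± 0.17), Man1a (-0.95 ± 0.16) and Pou3f1 (-0.83 ± 0.26). Higher in the vHipp were Ndst4, a heparan sulfate modifying enzyme (3.88 ± 0.19), and Fibcd1, a chitin-binding receptor. Fibcd1 ranged over 9.63 to 99.6 CPM (median 25.97) in the vHipp and 4.80 to 7.77 CPM (median 5.53) in the mPFC (LFC = 2.06 ± 0.26, adjusted p = 7.90e-06), without overlap but widely within the vHipp, and mouse 30 had its highest value.

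The 8 CA2 markers split evenly, 3 higher in each region, with Ntf3 (LFC = 1.83 ± 0.21) and Map3k15 (-2.45 ± 0.26) as the largest differences. Among 11 markers of the ventral pole and subiculum, 3 were higher in the vHipp, 3 in the mPFC and 5 did not pass. Calb2, the calcium buffer calretinin, varied most, at 14.8 to 279.6 CPM (median 113.3) in the vHipp and 17.7 to 31.0005 CPM (median 20.2) in the mPFC (LFC = 2.004 ± 0.39, adjusted p = 5.08e-04). It overlapped between regions, and was lower in the vHipp than in the mPFC in 1 mouse. The summed list was 179 to 556 CPM (median 253) in the vHipp, with mouse 30 at the top, and 119.002 to 220.4 CPM (median 163) in the mPFC.

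Cortical layer markers were less one-sided than the dentate list. For layers 2 to 4, 8 of 13 members were higher in the mPFC and 3 in the vHipp (median LFC -0.58), and summed levels were 847 to 1175 CPM (median 964) in the mPFC against 507 to 685 CPM (median 623) in the vHipp, without overlap. Lamp5, a lysosome-associated membrane protein of upper-layer cells and interneurons, had 132.7 to 215 CPM (median 168) in the mPFC and 34.98 to 63.3 CPM (median 47.9) in the vHipp (LFC = -1.84 ± 0.08, adjusted p = 2.94e-11). The 3 members higher in the vHipp were Mdga1 (LFC = 2.24 ± 0.14), Scnn1a (2.15 ± 0.21) and Cdh24 (1.56 ± 0.10).

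For layer 5, 6 of 13 members were higher in the mPFC and 5 in the vHipp (median LFC -0.30). Rbp4, a retinol carrier, measured 9.13 to 16.9 CPM (median 14.6) in the mPFC and 1.12 to 3.84 CPM (median 2.62) in the vHipp (LFC = -2.51 ± 0.12, adjusted p = 9.11e-11), and Deptor, an mTOR inhibitor, 31.7 to 62.2 CPM (median 57.3) in the mPFC and 5.54 to 18.2 CPM (median 12.01) in the vHipp (LFC = -2.21 ± 0.12, adjusted p = 2.69e-10). Both separated the regions. For layers 6 and 6b, 7 of 14 were higher in the mPFC and 4 in the vHipp (median LFC -0.59). Ccn2, a matricellular protein of layer 6b, had 5.71 to 31.2 CPM (median 12.4) in the mPFC and 1.32 to 9.88 CPM (median 2.58) in the vHipp (LFC = -1.97 ± 0.31, adjusted p = 7.89e-05), and the ranges overlapped. Summed layer 6 and 6b levels overlapped, at 297 to 705 CPM (median 504.05) in the mPFC and 494 to 605 CPM (median 532) in the vHipp, and were higher in the vHipp in 6 of 10 mice, against the sign of the list's median LFC. Summed layer 5 levels overlapped too, at 499 to 919.7 CPM (median 851) in the mPFC and 719.8 to 1009.8 CPM (median 814) in the vHipp. Mouse 24 had the lowest mPFC sum of both lists.

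**Figure D3:**
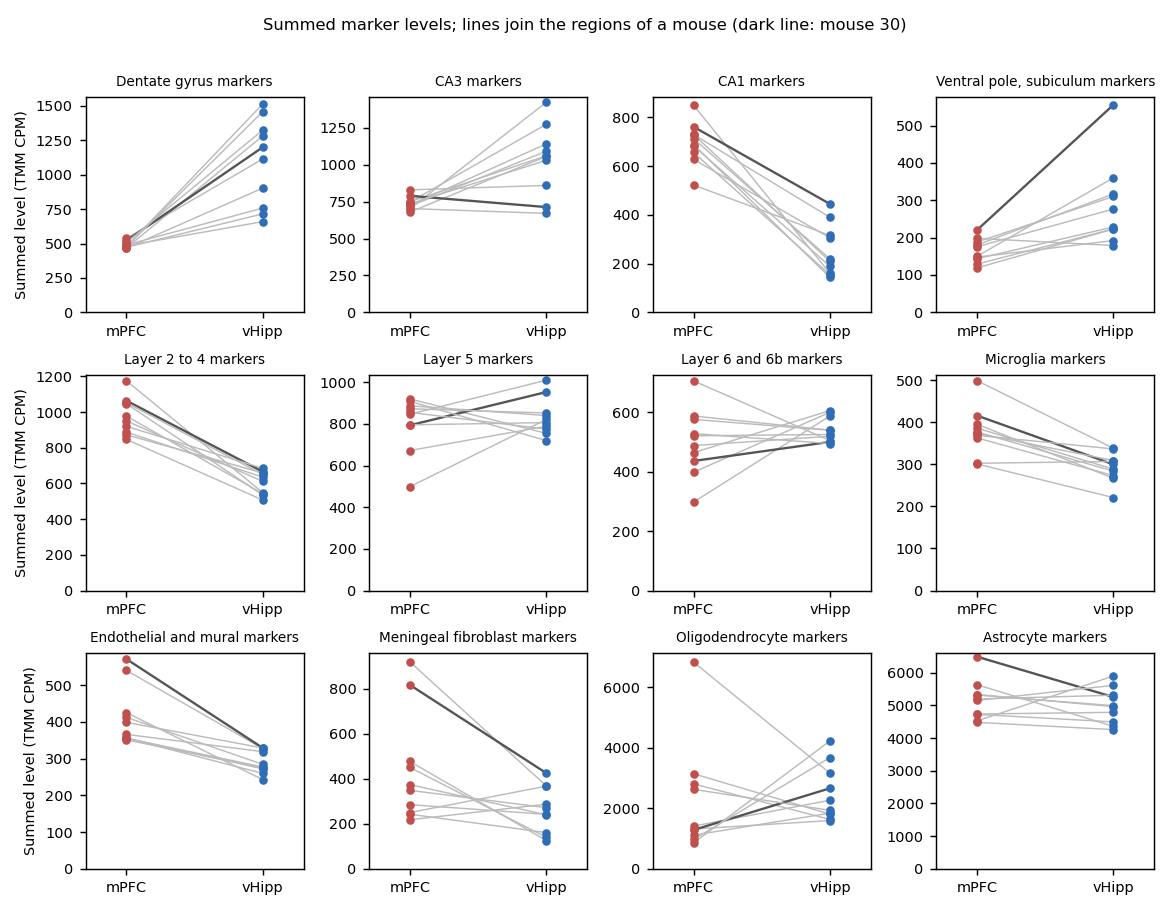
Summed levels (TMM CPM) of 12 marker lists in the mPFC (red) and vHipp (blue) library of each mouse, joined by a line, with mouse 30 in dark grey and each axis starting at 0. Dentate gyrus sums lie higher in the vHipp of all 10 mice, sums of layers 2 to 4 lie lower, and ventral pole and subiculum markers of mouse 30 reach 556 CPM.

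Other genes that separated the regions were chosen by the size of their difference, among genes that differed in the same direction in 10 of 10 mice with at least 5 CPM in the higher region. In the vHipp, Syna, a placental syncytin derived from a retroviral envelope gene, had 5.81 to 22.2 CPM (median 14.9) in the vHipp and 0 to 0.757 CPM (median 0.0952) in the mPFC (LFC = 6.01 ± 0.32). Slc9a4, a sodium-proton exchanger, had 17.9 to 44.4 CPM (median 31.5) in the vHipp and 0.109 to 1.66 CPM (median 0.650) in the mPFC (LFC = 5.47 ± 0.22), and Slco2a1, the prostaglandin transporter, had 11.3 to 21.6 CPM (median 17.3) in the vHipp and 0.109 to 0.947 CPM (median 0.522) in the mPFC (LFC = 5.18 ± 0.20). None of the 3 overlapped. Krt2, a keratin (LFC = 4.84 ± 0.20), Frem3, an extracellular matrix protein (4.72 ± 0.32), Popdc3 (4.01 ± 0.22), Rtl3 (5.27 ± 0.28), Lrrc10b (3.97 ± 0.24) and the noncoding Gm26644 (5.96 ± 0.26) and 2310002F09Rik (5.12 ± 0.30) also stood in this group beside Lhx9, Dsp, Tdo2 and Lct.

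In the mPFC, the largest difference was that of Gm765, a protein-coding gene on chromosome 6. It had 6.15 to 15.1 CPM (median 9.08) in the mPFC and 0 to 0.0696 CPM (median 0) in the vHipp, with 1854 counts in the mPFC libraries together and 4 in the vHipp libraries. The size of its fitted LFC (-8.68 ± 0.22) therefore depends on the prior count, and the approximate SE understates the counting error of so few counts. Igfn1, an immunoglobulin and fibronectin domain protein, had 11.8 to 36.7 CPM (median 24.2) in the mPFC and 0.0528 to 1.60 CPM (median 0.458) in the vHipp (LFC = -5.34 ± 0.23). The ranges of both were separate. Muscle-type genes also stood in this group, the myosin Myh2 (LFC = -4.54 ± 0.20) and the cardiac troponin T Tnnt2 (-3.98 ± 0.21), with Trbc2, a T cell receptor constant segment (-4.56 ± 0.27), Ovol2 (-4.17 ± 0.32), Tmem232 (-4.17 ± 0.13), Rasgef1c (-3.81 ± 0.14), Dkkl1 (-3.78 ± 0.23), Atp6ap1l (-3.87 ± 0.19) and the noncoding A830009L08Rik (-5.71 ± 0.28) and C730002L08Rik (-3.87 ± 0.15).

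The genes with the largest differences in mean CPM included Ncdn, Cplx2, Hpca and Camk2b in the vHipp and Meg3, Camk2n1, mt-Co1, Kif5a and Mef2c in the mPFC. Hpca, the calcium sensor hippocalcin, ranged over 658 to 2058 CPM (median 1502) in the vHipp and 391 to 614 CPM (median 464) in the mPFC (LFC = 1.504 ± 0.14, adjusted p = 1.59e-07), and Cplx2, the fusion regulator complexin, over 1717 to 2672 CPM (median 2319.5) in the vHipp and 958 to 1261 CPM (median 1011.05) in the mPFC (LFC = 1.16 ± 0.07, adjusted p = 2.59e-09). Both separated the regions. Camk2b, a subunit of the calcium/calmodulin kinase, was higher in the vHipp at 1297 to 2095 CPM (median 1665) in the vHipp and 841 to 970.2 CPM (median 898) in the mPFC (LFC = 0.90 ± 0.06, adjusted p = 2.22e-09), and Camk2n1, an inhibitor of that kinase, was higher in the mPFC at 1864 to 2302 CPM (median 2026) in the mPFC and 667 to 968 CPM (median 825) in the vHipp (LFC = -1.35 ± 0.06, adjusted p = 5.43e-11). The alpha subunit Camk2a did not pass the test (LFC = 0.12 ± 0.08, adjusted p = 0.306), but passed without mouse 30 (LFC = 0.20) and in the other 3 groups of mice (0.34 ± 0.09, 0.30 ± 0.09 and 0.50 ± 0.10). The imprinted noncoding RNA Meg3 (LFC = -0.48 ± 0.07), the motor Kif5a (-0.64 ± 0.07), the mitochondrial mt-Co1 (-0.15 ± 0.05) and neurochondrin, Ncdn (1.02 ± 0.06), differed by about 2-fold or less. The call of mt-Co1 was lost in several other settings, as given among the limits.

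Ionotropic glutamate receptors carry fast excitatory transmission, and their subunits set kinetics and calcium entry. Among 7 NMDA receptor subunits, 2 were higher in the vHipp and 1 in the mPFC, a smaller share than the 49.7% of all protein-coding genes. Grin2a, the GluN2A subunit, had 309 to 517 CPM (median 392) in the vHipp and 181 to 260.3 CPM (median 211) in the mPFC (LFC = 0.86 ± 0.05, adjusted p = 9.17e-10), and Grin3a, the GluN3A subunit, had 71.0 to 88.2 CPM (median 80.4) in the mPFC and 25.02 to 63.1 CPM (median 35.1) in the vHipp (LFC = -1.02 ± 0.11, adjusted p = 1.05e-06). Both separated the regions. The obligatory subunit Grin1 had an LFC of 0.02 ± 0.04 (adjusted p = 0.791).

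Every one of the 11 AMPA, kainate and delta receptor genes passed the test, 5 higher in the vHipp and 6 in the mPFC (median LFC -0.17). Their summed level was higher in the vHipp of 10 of 10 mice, at 2752 to 3399.7 CPM (median 3219.7) in the vHipp and 1887 to 2293 CPM (median 2107) in the mPFC. Gria1, the GluA1 subunit (ENSMUSG00000020524, chr11:57011387-57330244), had 1114 to 1422 CPM (median 1275) in the vHipp and 410.1 to 508 CPM (median 477) in the mPFC (LFC = 1.42 ± 0.04, adjusted p = 2.25e-13), without overlap. Per kilobase of exon its mean level was 208 RPKM in the vHipp and 77.6 in the mPFC, beside 56.2 and 38.1 RPKM for Gria2. Grik4, a high-affinity kainate subunit of mossy fiber synapses, had 67.9 to 154 CPM (median 117.9) in the vHipp and 22.1 to 36.7 CPM (median 29.7) in the mPFC (LFC = 1.93 ± 0.11, adjusted p = 4.72e-10), and Grik3, a low-affinity subunit, had 64.0 to 219 CPM (median 163) in the mPFC and 34.9 to 72.1 CPM (median 51.1) in the vHipp (LFC = -1.48 ± 0.11, adjusted p = 1.89e-08). Only Grik3 overlapped among these 3. Gria4 (LFC = -0.80 ± 0.06) and Gria3 (-0.46 ± 0.04) were higher in the mPFC, and Gria2 (0.55 ± 0.04) in the vHipp.

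Among the 7 metabotropic receptors, 4 were higher in the mPFC and 2 in the vHipp (median LFC -0.90). The 4 higher in the mPFC were Grm8 (-2.30 ± 0.17), Grm3 (-1.36 ± 0.10), Grm2 (-1.02 ± 0.12) and Grm4 (-0.90 ± 0.10), all of the inhibitory groups II and III, and their ranges were separate. Grm8 had 16.04 to 34.1 CPM (median 27.5) in the mPFC and 1.97 to 10.1 CPM (median 5.42) in the vHipp. Grm5, an excitatory group I receptor, was among those higher in the vHipp (0.40 ± 0.05).

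**Figure D4:**
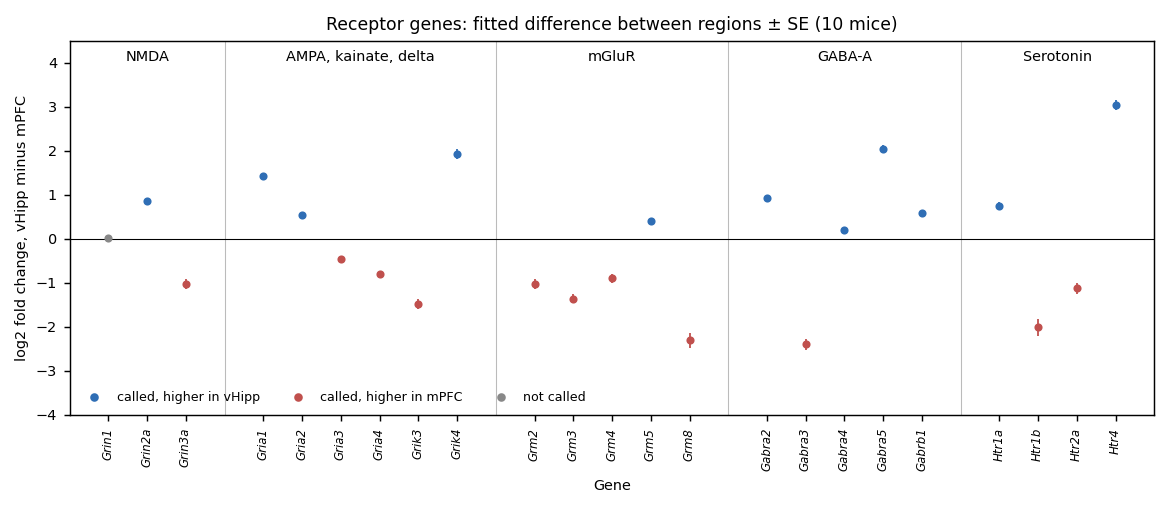
LFC of vHipp minus mPFC (y axis, points, ± SE as bars) for the receptor genes named in the text, of 5 families. Blue points were higher in the vHipp, red points were higher in the mPFC and grey points did not pass, with Gabra5 and Htr4 at the top of their families and Gabra3 and Grm8 at the bottom of theirs.

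GABA-A receptors are pentamers whose alpha subunits set location and pharmacology. Of 14 subunit genes, 5 were higher in the vHipp and 7 in the mPFC (median LFC -0.16), while the summed level was higher in the vHipp of 10 of 10 mice, with a median of 2009 against 1786 CPM and overlapping ranges. Gabra5, the subunit of extrasynaptic receptors abundant in hippocampus (ENSMUSG00000055078, chr7:57407672-57510059), had 151.8 to 255 CPM (median 219) in the vHipp and 35.3 to 66.3 CPM (median 50.7) in the mPFC (LFC = 2.03 ± 0.09, adjusted p = 3.65e-11). Gabra3 (ENSMUSG00000031343, chrX:72432681-72656848) had 152.5 to 192 CPM (median 184) in the mPFC and 21.7 to 52.8 CPM (median 32.2) in the vHipp (LFC = -2.39 ± 0.13, adjusted p = 3.66e-10). The ranges of both were separate, in opposite directions. Gabra2 was higher in the vHipp (LFC = 0.92 ± 0.05). By RPKM the order of these 3 subunits in the mPFC was Gabra3 (45.7), Gabra2 (22.1) and Gabra5 (17.2), and in the vHipp Gabra5 (70.3), Gabra2 (41.7) and Gabra3 (8.999), with Gabra4 at 17.3 and 20.02 RPKM in the mPFC and vHipp.

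Interneuron markers did not share a direction. Of 28 genes, 6 were higher in the vHipp, 12 in the mPFC and 10 did not pass, beside 49.7% of all protein-coding genes that passed. The GABA-synthesizing enzyme gene Gad1 was slightly higher in the vHipp, at 303 to 426 CPM (median 347) in the vHipp and 272 to 349.5 CPM (median 308) in the mPFC (LFC = 0.21 ± 0.05, adjusted p = 0.00153), with overlapping ranges. Vip, the peptide of a disinhibitory interneuron class, had 50.6 to 98.1 CPM (median 66.3) in the mPFC and 8.88 to 17.8 CPM (median 13.1) in the vHipp (LFC = -2.36 ± 0.07, adjusted p = 3.76e-13), without overlap.

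Chodl, which marks long-range projecting Sst cells, had only 10 counts over the 10 vHipp libraries, and levels of 0.336 to 1.36 CPM (median 0.521) in the mPFC and 0 to 0.0961 CPM (median 0.0515) in the vHipp (LFC = -3.68 ± 0.39). Tac1 (LFC = -1.11 ± 0.27) and Cck (-0.76 ± 0.07) were higher in the mPFC, Nos1 (0.75 ± 0.09) and Adarb2 (0.92 ± 0.08) in the vHipp. The main class markers Sst (LFC = -0.22 ± 0.14, adjusted p = 0.260) and Pvalb (-0.08 ± 0.12, adjusted p = 0.633) did not pass the test. Sst passed without mouse 30 (LFC = -0.33). Of 16 transmitter transporters, 7 were higher in the vHipp and 3 in the mPFC, with the vesicular zinc transporter Slc30a3 at an LFC of -0.49 ± 0.10 and the vesicular glutamate transporter Slc17a7 at 0.25 ± 0.08. The call of Slc17a7 was lost without mouse 22, 24, 28 or 39 (LFC = 0.23 to 0.25).

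Receptors for monoamines and acetylcholine differed by subtype. Of 14 serotonin receptor genes, 2 were higher in the vHipp, 4 in the mPFC and 8 did not pass, a smaller share passing than the 49.7% of all protein-coding genes. Htr4, a Gs-coupled receptor, had 12.9 to 23.5 CPM (median 19.1) in the vHipp and 0.971 to 2.84 CPM (median 2.41) in the mPFC (LFC = 3.04 ± 0.12, adjusted p = 7.32e-12). Htr1b, a Gi-coupled terminal autoreceptor and heteroreceptor, had 7.99 to 16.2 CPM (median 11.6) in the mPFC and 1.59 to 5.46 CPM (median 2.51) in the vHipp (LFC = -2.01 ± 0.20, adjusted p = 3.58e-07), and Htr2a, the Gq-coupled receptor of cortical pyramidal cells, 29.98 to 38.96 CPM (median 32.5) in the mPFC and 9.90 to 24.7 CPM (median 15.6) in the vHipp (LFC = -1.13 ± 0.12, adjusted p = 7.60e-07). The ranges of all 3 were separate. Htr1a was higher in the vHipp (LFC = 0.75 ± 0.09) with overlapping ranges.

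Of 23 dopamine, adrenergic and cholinergic receptor genes, 9 were higher in the vHipp and 12 in the mPFC. Adra1b, an alpha-1 adrenergic receptor, had 19.96 to 30.1 CPM (median 26.7) in the mPFC and 1.69 to 4.61 CPM (median 3.001) in the vHipp (LFC = -3.11 ± 0.11, adjusted p = 2.86e-12). Drd5, a D1-like dopamine receptor, had 7.12 to 11.9 CPM (median 10.1) in the vHipp and 1.43 to 2.82 CPM (median 2.33) in the mPFC (LFC = 2.09 ± 0.11, adjusted p = 1.88e-10), and Chrna7, the alpha-7 nicotinic subunit, 27.9 to 44.9 CPM (median 40.2) in the vHipp and 8.99 to 14.7 CPM (median 11.5) in the mPFC (LFC = 1.71 ± 0.08, adjusted p = 3.96e-11). No ranges overlapped for these 3. Drd1 was higher in the mPFC (LFC = -0.98 ± 0.12) and Drd2 in the vHipp (1.59 ± 0.24), both with overlapping ranges.

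Stress axis genes showed opposite directions for the corticosteroid receptors. Nr3c2, the mineralocorticoid receptor, had 168 to 236 CPM (median 208) in the vHipp and 40.5 to 71.5 CPM (median 49.0) in the mPFC (LFC = 1.92 ± 0.09, adjusted p = 5.98e-11), without overlap. Nr3c1, the glucocorticoid receptor, had 75.04 to 116.1 CPM (median 103.5) in the mPFC and 50.9 to 86.9 CPM (median 72.8) in the vHipp (LFC = -0.50 ± 0.05, adjusted p = 2.94e-07), with overlap. Per kilobase, Nr3c2 averaged 31.8 RPKM in the vHipp against 9.43 for Nr3c1, while in the mPFC Nr3c2 averaged 8.55 against 13.3.

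Fkbp5, the immunophilin that lowers receptor sensitivity, had 52.9 to 77.4 CPM (median 71.2) in the vHipp and 19.5 to 29.03 CPM (median 21.5) in the mPFC (LFC = 1.62 ± 0.06, adjusted p = 6.89e-12). Crhr1, the main receptor of corticotropin-releasing hormone, had 23.1 to 36.8 CPM (median 28.2) in the mPFC and 9.67 to 14.7 CPM (median 12.6) in the vHipp (LFC = -1.22 ± 0.07, adjusted p = 8.17e-10), and the second receptor Crhr2 had 1.47 to 4.66 CPM (median 3.74) in the vHipp and 0.654 to 1.79 CPM (median 1.23) in the mPFC (LFC = 1.44 ± 0.15, adjusted p = 7.01e-07). Ranges overlapped only for Crhr2 among these 3. The ligand gene Crh (LFC = -1.82 ± 0.19) and the binding protein gene Crhbp (-1.27 ± 0.15) were higher in the mPFC. In all, 6 of 17 tested members were higher in the vHipp, 5 in the mPFC and 6 did not pass.

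Neuropeptide genes were more often higher in the mPFC, 13 of 26 against 5 in the vHipp (median LFC -0.34). Tac2, the neurokinin B precursor, had 6.99 to 16.8 CPM (median 10.1) in the mPFC and 0.821 to 2.74 CPM (median 1.79) in the vHipp (LFC = -2.63 ± 0.14, adjusted p = 3.42e-10), and Adcyap1, the PACAP precursor, an LFC of -1.36 ± 0.30. Gal, the galanin precursor, was low in both regions at 0.255 to 4.66 CPM (median 0.717) in the vHipp and 0 to 0.219 CPM (median 0.0758) in the mPFC (LFC = 3.97 ± 0.44, adjusted p = 1.40e-06). Tac2 and Gal separated the regions.

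Among 35 neurotrophin and plasticity genes, 10 were higher in the vHipp and 13 in the mPFC (median LFC -0.00), beside 49.7% of all protein-coding genes that passed. Bdnf, the growth factor of activity-dependent plasticity, had 37.1 to 60.6 CPM (median 47.1) in the vHipp and 16.6 to 24.2 CPM (median 19.8) in the mPFC (LFC = 1.26 ± 0.06, adjusted p = 1.56e-10), and Ntf3, neurotrophin 3, had 6.05 to 12.5 CPM (median 9.34) in the vHipp and 1.18 to 4.47 CPM (median 2.51) in the mPFC (LFC = 1.83 ± 0.21, adjusted p = 2.24e-06). Neither overlapped. The Bdnf receptor gene Ntrk2 (LFC = -0.50 ± 0.04) and the binding protein gene Igfbp4 (-1.55 ± 0.12) were higher in the mPFC.

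Immediate early genes are induced within minutes of neuronal activity. Of 20, 14 were higher in the mPFC, 5 were higher in the vHipp and 1 did not pass (median LFC -0.57). Their summed level, to which abundant members contribute most, ran the other way, at 640.0 to 907 CPM (median 711) in the mPFC and 683 to 857 CPM (median 781) in the vHipp, with overlapping ranges and the higher value in the vHipp of 8 of 10 mice. Egr1 had 108.1 to 174 CPM (median 132.3) in the mPFC and 36.4 to 68.6 CPM (median 52.2) in the vHipp (LFC = -1.37 ± 0.07, adjusted p = 2.47e-10), Npas4 had 8.12 to 21.6 CPM (median 13.4) in the mPFC and 1.65 to 5.83 CPM (median 4.29) in the vHipp (LFC = -1.81 ± 0.15, adjusted p = 5.92e-08) and Fos had 2.94 to 13.3 CPM (median 5.53) in the mPFC and 0.903 to 3.36 CPM (median 1.65) in the vHipp (LFC = -1.73 ± 0.18, adjusted p = 7.86e-07). Fos overlapped between the regions and the other two did not. Arc did not pass the test, at 24.8 to 101.4 CPM (median 45.8) in the mPFC and 36.1 to 71.6 CPM (median 45.8) in the vHipp (LFC = -0.06 ± 0.13, adjusted p = 0.754).

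The 5 immediate early genes higher in the vHipp were Nr4a3 (LFC = 2.09 ± 0.13), Jun (2.02 ± 0.09), Nr4a2 (1.98 ± 0.16), Fosl2 (1.07 ± 0.08) and Btg2 (0.39 ± 0.10). Jun, an AP-1 subunit, had 110.4 to 192 CPM (median 149.8) in the vHipp and 29.6 to 44.6 CPM (median 37.4) in the mPFC, and Nr4a3, an orphan nuclear receptor, had 94.6 to 202 CPM (median 158) in the vHipp and 19.2 to 46.9 CPM (median 36.5) in the mPFC, both without overlap. Nr4a1, from the same receptor family, was higher in the mPFC (-1.51 ± 0.11).

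Ion channel genes moved in both directions. Of 68 potassium channel genes, including auxiliary subunits and Hcn channels, 24 were higher in the vHipp and 30 in the mPFC (median LFC -0.18). Kcnh7, an ERG-type channel, had 143.3 to 181 CPM (median 165) in the mPFC and 9.88 to 41.3 CPM (median 30.1) in the vHipp (LFC = -2.80 ± 0.20, adjusted p = 9.23e-09), and Kcnt1, a sodium-activated channel, had 139.7 to 198 CPM (median 167) in the mPFC and 27.5 to 74.96 CPM (median 44.9) in the vHipp (LFC = -1.92 ± 0.14, adjusted p = 8.99e-09). Both separated the regions. Kcng2, a modifier subunit (2.27 ± 0.11), was higher in the vHipp, and Kcnf1 (-1.86 ± 0.13), Kcnk3 (-1.84 ± 0.11) and Kcnj12 (-1.84 ± 0.11) in the mPFC. Of 29 calcium and sodium channel genes, 11 were higher in the vHipp and 9 in the mPFC, and 1 passed 2-fold, the T-type channel Cacna1g with 175 to 245 CPM (median 191) in the mPFC and 62.0 to 113.02 CPM (median 70.9) in the vHipp (LFC = -1.398 ± 0.09, adjusted p = 2.63e-09).

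Guidance molecules included several of the clearest differences. Of 43 semaphorin, plexin, neuropilin, Slit, Robo, netrin-G and netrin receptor genes, 22 were higher in the vHipp, 12 in the mPFC and 9 did not pass (median LFC 0.24). Slit1, a secreted repellent, had 314 to 457 CPM (median 395) in the vHipp and 71.1 to 100.5 CPM (median 85.6) in the mPFC (LFC = 2.21 ± 0.05, adjusted p = 1.11e-13). Nrp1, a semaphorin and VEGF co-receptor, had 79.5 to 135.5 CPM (median 102.9) in the vHipp and 12.6 to 31.1 CPM (median 22.4) in the mPFC (LFC = 2.26 ± 0.11, adjusted p = 8.23e-11), while its ligand gene Sema3a had 10.3 to 17.3 CPM (median 12.7) in the mPFC and 0.341 to 3.62 CPM (median 1.57) in the vHipp (LFC = -3.04 ± 0.19, adjusted p = 1.36e-09). None of these overlapped. Plxnd1, the receptor of Sema3e, was higher in the mPFC (-2.38 ± 0.11), and Sema3e was higher in the vHipp (1.86 ± 0.13). Sema5a (2.12 ± 0.10), Nrp2 (1.77 ± 0.07), Unc5c (1.71 ± 0.08) and Dcc (1.53 ± 0.07) were higher in the vHipp.

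Ephrins and Eph receptors divided into 9 higher in the vHipp and 8 higher in the mPFC of 20. The ephrin gene Efna5 had 22.7 to 33.5 CPM (median 28.8) in the mPFC and 2.32 to 6.31 CPM (median 2.90) in the vHipp (LFC = -3.04 ± 0.15, adjusted p = 1.17e-10), without overlap, and the receptor genes Epha3 (1.44 ± 0.15) and Epha7 (1.15 ± 0.06) were higher in the vHipp. Of 36 cadherins, protocadherins, teneurins, latrophilins and leucine-rich partners, 19 were higher in the mPFC and 11 in the vHipp (median LFC -0.22). Cdh9, a cadherin of dentate and CA3 synapses, had 58.3 to 106.8 CPM (median 86.1) in the vHipp and 17.6 to 24.6 CPM (median 19.6) in the mPFC (LFC = 2.10 ± 0.05, adjusted p = 1.11e-13), and Adgrl2, latrophilin 2, had 131.8 to 158 CPM (median 140.6) in the mPFC and 5.34 to 43.9 CPM (median 18.9) in the vHipp (LFC = -2.93 ± 0.29, adjusted p = 4.34e-07). Pcdh20, a protocadherin, was higher in the vHipp (2.89 ± 0.15).

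Signalling and matrix lists gave smaller sets. Of 32 Wnt and retinoic acid genes, 17 were higher in the mPFC and 5 in the vHipp (median LFC -0.34). Aldh1a3, which makes retinoic acid, had 4.29 to 12.6 CPM (median 7.46) in the mPFC and 0.4222 to 1.22 CPM (median 0.602) in the vHipp (LFC = -3.43 ± 0.20, adjusted p = 5.89e-10), and Cyp26b1, which degrades it, had 5.01 to 21.1 CPM (median 8.76) in the vHipp and 1.26 to 4.83 CPM (median 1.71) in the mPFC (LFC = 2.24 ± 0.23, adjusted p = 5.18e-07). Their ranges were separate, in opposite directions. The Wnt inhibitor gene Sfrp1 had 30.5 to 52.9 CPM (median 41.8) in the mPFC and 3.88 to 8.17 CPM (median 5.499) in the vHipp (LFC = -2.85 ± 0.11, adjusted p = 7.78e-12). Of 17 perineuronal net and matrix genes, 6 were higher in the vHipp and 5 in the mPFC, beside 49.7% of all protein-coding genes that passed. Of the matrix genes that passed, only Col25a1, a transmembrane collagen (1.33 ± 0.06), and Has2, a hyaluronan synthase (-1.01 ± 0.23), reached 2-fold.

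The list of adult neurogenesis and proliferation genes held 6 higher in the vHipp and 6 higher in the mPFC of 15. Dcx, the microtubule protein of migrating neuroblasts, was higher in the mPFC at 45.2 to 60.5 CPM (median 50.1) in the mPFC and 17.1 to 25.5 CPM (median 22.4) in the vHipp (LFC = -1.25 ± 0.06, adjusted p = 9.78e-11), without overlap. Neurod1 (1.11 ± 0.08), Draxin (1.38 ± 0.35) and Eomes (1.96 ± 0.64), expressed by dentate progenitors or immature granule cells, were higher in the vHipp. Eomes was close to 0, with the highest vHipp libraries at 0.435 (mouse 38) and 0.211 CPM. It lost its call without mouse 35 (LFC = 1.79) or mouse 38 (1.87), and also without the block, by DESeq2, with no filter on low counts and in the fit of all groups. The proliferation markers Mki67 (LFC = -0.07 ± 0.24, adjusted p = 0.860) and Top2a (0.38 ± 0.28, adjusted p = 0.328) did not pass.

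Markers of vascular, immune and meningeal cells were higher in the mPFC. All 11 endothelial and mural markers and all 10 microglia markers were higher there, with median LFCs of -0.49 and -0.40, and so were 9 of 10 meningeal fibroblast markers (median -0.73). Summed endothelial and mural levels were 351 to 572 CPM (median 383) in the mPFC and 243 to 329 CPM (median 281) in the vHipp, without overlap. Summed microglia levels were 301 to 499 CPM (median 375) and 221 to 338 CPM (median 294), and summed meningeal levels 218 to 919.8 CPM (median 361) and 125.2 to 425 CPM (median 257), both with overlap.

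The mPFC libraries of mice 24 and 30 had the highest meningeal sums, 919.8 and 817 CPM. Without mice 22, 24 and 30, 5 of 10 meningeal markers were higher in the mPFC, while the counts were 10 of 11 and 9 of 10 for the other two lists. Of 6 erythroid transcripts, 4 were higher in the mPFC and 1 in the vHipp (median LFC -1.34), while their summed level was higher in the vHipp of 8 of 10 mice, with a median of 467 against 379 CPM. Among the members higher in the mPFC was Hba-a1 with 32.2 to 194 CPM (median 48.7) in the mPFC and 14.3 to 45.9 CPM (median 22.6) in the vHipp (LFC = -1.37 ± 0.16, adjusted p = 2.43e-06), whose reads may be shared with its near-identical copy Hba-a2. The part of residual blood or of vessel density in these differences was not tested.

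Markers of macroglia followed. None of 10 oligodendrocyte markers passed edgeR's test (median LFC 0.30), with 0 at an unadjusted p under 0.05, 0 called by DESeq2 and 0 by limma-voom. Mbp, myelin basic protein, had 386 to 2940.4 CPM (median 606) in the mPFC and 708 to 1946 CPM (median 973) in the vHipp (LFC = 0.41 ± 0.29, adjusted p = 0.316), and mouse 22 held the highest mPFC value. The summed list reached 6834 CPM in that library, where the other mPFC libraries lay at or below 3142. Among astrocyte markers, 1 of 10 was higher in the vHipp and 2 in the mPFC, and among markers of oligodendrocyte precursors 2 and 3 of 10, all below 2-fold. The 9 reference genes had a median LFC of 0.03, with Actb (0.23 ± 0.05) and Rpl13 (-0.12 ± 0.04) past the threshold, although the call of Rpl13 was lost in most other settings.

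Markers of neighbouring structures were examined as signs of what else the punches held. The choroid plexus marker Ttr was low, at 0 to 10.7 CPM (median 0.228) in the mPFC and 0 to 7.77 CPM (median 0.248) in the vHipp (LFC = -0.37 ± 0.85, adjusted p = 0.791), with 1 library in each region above the rest. Ttr passed without mouse 38 (LFC = -1.49), and without mouse 24 its LFC was 0.58 and did not pass. Its list had 4 members higher in the vHipp and 3 higher in the mPFC of 11, with a summed level higher in the vHipp of 1 of 10 mice, and the ependymal list 1 and 1 of 8. Striatal markers were higher in the mPFC for 7 and in the vHipp for 3 of 13, and of their defining members Adora2a had an LFC of -0.88 ± 0.16 and Drd2 of 1.59 ± 0.24. Summed striatal levels were 188 to 242 CPM (median 209.8) in the mPFC and 144.7 to 202 CPM (median 172) in the vHipp.

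The thalamic and habenular list held 3 members higher in the vHipp and 2 higher in the mPFC of 9. Slc17a6, the vesicular glutamate transporter of the thalamus, had 5.99 to 22.1 CPM (median 17.7) in the mPFC and 1.53 to 34.1 CPM (median 10.03) in the vHipp (LFC = -0.57 ± 0.31, adjusted p = 0.179), and Calb2 is shared with the ventral pole list. Olfactory area and claustrum markers were higher in the vHipp for 5 and in the mPFC for 3 of 8, and amygdala and entorhinal markers for 2 and 5 of 10. Summed thalamic and habenular levels were 81.4 to 104.8 CPM (median 95.98) in the mPFC and 51.4 to 345 CPM (median 166) in the vHipp, higher in the vHipp of 9 of 10 mice with overlapping ranges. The mean sums were 94.23 CPM in the mPFC and 173.98 CPM in the vHipp. Calb2 alone had means of 22.05 and 114.997 CPM, a larger difference than that of the sum. On average, the other members together were thus lower in the vHipp. Summed olfactory and claustrum levels were 324 to 411 CPM (median 363) and 455 to 567 CPM (median 525), higher in the vHipp of 10 of 10 mice without overlap. Summed amygdala and entorhinal levels were 593 to 797 CPM (median 721) and 363 to 632 CPM (median 466.3), higher in the vHipp of 0 of 10 mice. Many of these genes also have hippocampal or cortical expression, and the part of neighbouring tissue in the results was not tested.

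A difference in sign between the median LFC of a list and the difference of its median summed levels was also found, with overlapping sums, for metabotropic glutamate receptors, interneuron markers, transmitter transporters, the dopamine, adrenergic and cholinergic receptors, neurotrophin and plasticity genes, potassium channels, neurogenesis and proliferation genes, and ependymal markers.

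**Figure D5:**
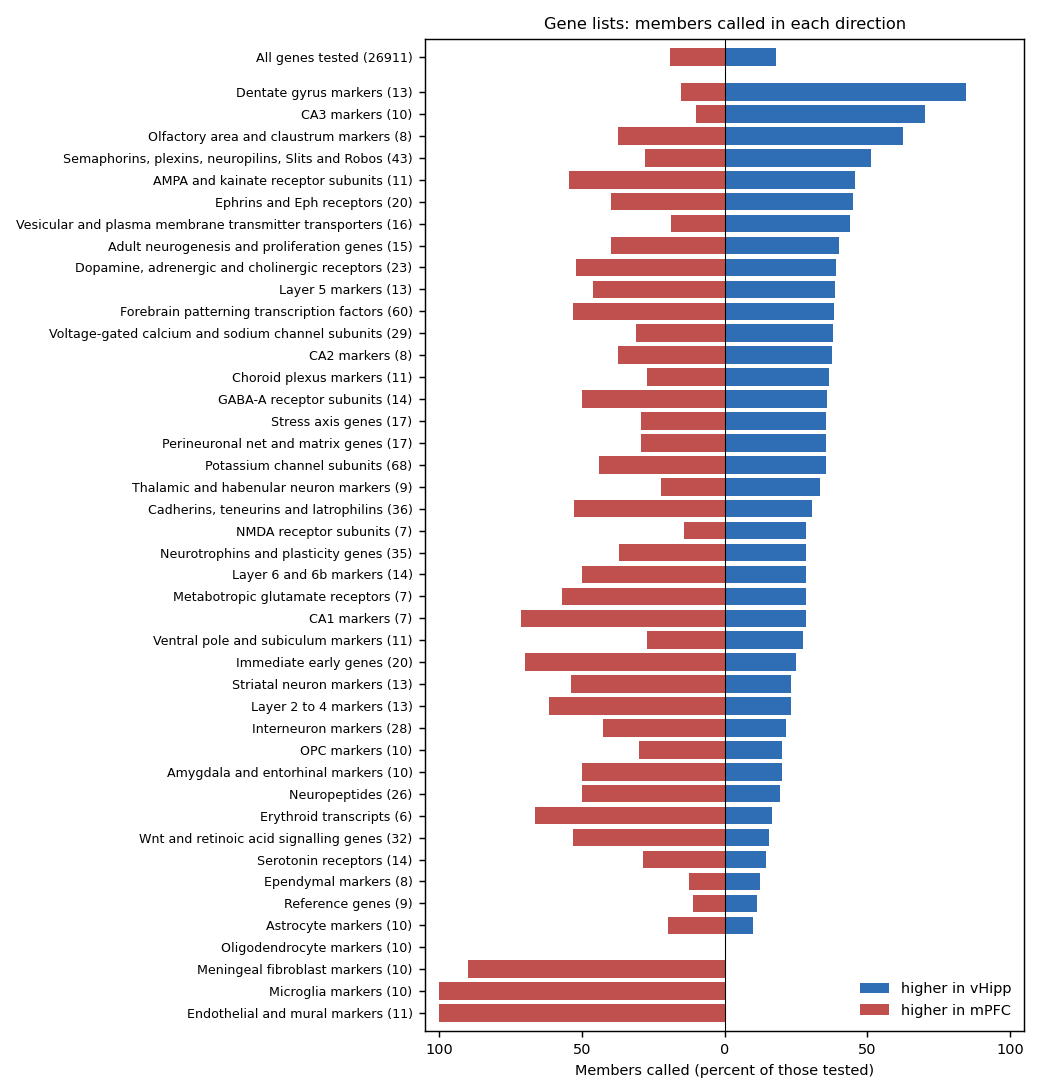
Share of the tested members of each gene list that were higher in the vHipp (blue, to the right) or in the mPFC (red, to the left), in percent, with the number tested in parentheses and all 26911 genes at the top. The dentate gyrus list extends furthest to the right, and the endothelial and mural and the microglia lists reach 100% on the left, against 18% and 19.3% of all genes. Of the protein-coding genes tested, a closer yardstick for these lists, 49.7% passed in either direction.

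Within a region, mice differed more in the vHipp than in the mPFC for most genes. Over the 11674 genes with at least 5 CPM on average in both regions, the median SD of log2 CPM was 0.136 in the mPFC and 0.161 in the vHipp, and 65.9% of them had the larger SD in the vHipp. The genes with the largest SD in the vHipp, named after their values were seen, were AC165951.1, Cwc22, Pecam1, AC102496.1 and Rpsa-ps10, and the same 5 had the largest SD in the mPFC. Cwc22, a splicing factor gene, ranged from 20.7 to 512 CPM in the vHipp and from 19.2 to 483 in the mPFC. Pecam1, an endothelial adhesion gene, ranged from 0 to 14.6 CPM and from 0.237 to 17.4. The deviations of a mouse from the region means correlated between its regions, with a median r of 0.264 (range 0.137 to 0.515, across 15734 genes, which are not independent), against -0.0240 between different mice. The value between different mice is lowered by taking deviations from the mean of the same libraries. Both regions of a mouse share its genotype (CD-1 is an outbred stock), its SB and its handling. The part of each in this correlation was not tested.

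The same contrast was then taken in 29 other mice, which share no library with the saline CTRL group. In 10 CTRL mice given ketamine, 9813 of 31497 genes differed between regions (31.2%), in 10 CSDS mice given saline 9558 (30.3%) and in 9 CSDS mice given ketamine 9035 (28.7%), with the mouse as a block. For saline CTRL mice the same fit gave 9864 of 31497 genes, beside 10037 of 26911 when they were fitted alone. Of the 10037 genes that differed in saline CTRL mice, 8006, 7499 and 7306 passed the test in the same direction in these groups (79.8%, 74.7% and 72.8%), and 0, 2 and 4 in the opposite direction. These last were Rpl30 and the pseudogene Rps18-ps1 in CSDS saline mice, and Acsl3, Cd274, mt-Co1 and mt-Rnr1 in CSDS ketamine mice. All 6 were higher in the mPFC of saline CTRL mice. The vHipp library of CSDS ketamine mouse 11 stood apart with 8.93% of its counts on mitochondrial genes, against 3.27% to 4.82% in the other vHipp libraries of that group. Without mouse 11, 0 genes passed in the opposite direction in CSDS ketamine mice (mt-Co1 had an LFC of 0.16 ± 0.06, adjusted p = 0.0558), and 7418 passed in the same direction. The genes shared in direction were 81.6%, 78.5% and 80.9% of each group's own calls. In all 3 groups together, 6461 genes passed in the same direction, 3207 higher in the vHipp and 3254 higher in the mPFC, and of the genes with at least a 2-fold difference 1979 did (74.1%).

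Of 166 single genes examined that passed in saline CTRL mice, 13 did not pass in the same direction in at least 1 other group. They were Adora2a, Btg2, Calb2, Eomes, Gabra4, Man1a, Nr2f1, Pdzd2, Pecam1, Pou3f1, Rpl13, Slc17a7 and mt-Co1. None of the 13 passed in the same direction in CSDS ketamine mice. Without mouse 11, only Slc17a7 of these did so in that group (LFC = 0.26 ± 0.09, adjusted p = 0.0214). Calb2 had an LFC of 1.59 ± 0.38 in CTRL ketamine, 1.06 ± 0.37 in CSDS saline and 0.77 ± 0.40 in CSDS ketamine mice, beside 2.02 ± 0.39 in saline CTRL mice, and missed the threshold in CSDS ketamine mice (adjusted p = 0.170). Adora2a had -0.72 ± 0.23, -0.21 ± 0.22 and -0.11 ± 0.24, beside -0.87 ± 0.23, and Btg2 0.39 ± 0.10, 0.05 ± 0.10 and 0.22 ± 0.11, beside 0.40 ± 0.10. Both missed the threshold in the CSDS groups. A call in one group and not in another does not show that the groups differ.

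For Lhx9 the LFC was 6.21 ± 0.20 in CTRL ketamine, 6.22 ± 0.20 in CSDS saline and 5.63 ± 0.21 in CSDS ketamine mice, beside 5.91 ± 0.19 for saline CTRL mice in the same fit. The corresponding values were 1.44 ± 0.05, 1.37 ± 0.05 and 1.41 ± 0.05 for Gria1 and 1.998 ± 0.11, 1.96 ± 0.11 and 1.99 ± 0.12 for Nr3c2.

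The test of equal regional differences in all 4 groups gave 0 of 31497 genes by edgeR, with 1252 at an unadjusted p under 0.05 (3.97%), and 0 by limma-voom, with 1709. Each other group against saline CTRL mice, 3 comparisons that share the saline CTRL libraries, gave 0 genes as well by edgeR, with 788, 2081 and 1987 at an unadjusted p under 0.05, and 0 by limma-voom, with 1179, 2653 and 2308. The 5 genes with the smallest p in the test of all groups were 2610316D01Rik, Tert, mt-Co3, Zbtb8a and Gm28438, each with an adjusted p of 1 in edgeR's test. For Tert, the telomerase catalytic subunit, the LFC was -0.17 ± 0.10 in saline CTRL, -0.52 ± 0.11 in CTRL ketamine, -0.86 ± 0.11 in CSDS saline and -0.78 ± 0.11 in CSDS ketamine mice. A missed threshold does not show that the groups had equal regional differences.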

How the data were processed

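Bulk RNA sequencing counts of 20 libraries (10 mPFC, 10 vHipp, 10 saline CTRL mice) were analyzed, with 78 libraries of 39 mice for the other groups. The authors punched frozen tissue, removed samples of RIN below 8, made stranded mRNA libraries and deposited unnormalized counts of reads for 55471 gene identifiers. The submitters' processing notes name bcl2fastq 2.20.0.422, CASAVA and GRCm38. The aligner, the counting program and the strand setting are not given in the sources used here. Exon lengths came with the deposited table, and 55230 identifiers were matched to GENCODE M21 for names.

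Genes with more than 10 counts in total and counts in more than 3 libraries were tested with edgeR 4.0.16 (R 4.3.3), TMM normalization, quasi-likelihood F test, mouse as a block, and Benjamini-Hochberg adjustment over all genes, two-sided. The block absorbs the SB, which is constant within a mouse. The animal number in the labels pairs the regions, and same-mouse deviations correlated at 0.137 or more in all 10 pairs. CPM were computed with TMM factors and RPKM as CPM per kilobase of exon. No libraries of a region agreed within sampling noise (lowest variance ratio to counting noise 4.55). Alternatives were DESeq2 1.42.0, limma-voom (limma 3.58.1), no block, other normalizations and filters, glmTreat against 1.5-fold, a log2 threshold of 2, all groups in one fit and each mouse left out. Fits without mice 22, 24 and 30, and without CSDS ketamine mouse 11, were added after seeing the data. Fits were tested on simulated counts. Single measures used exact permutation tests (scipy 1.17.1).

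Genes named were the 15 per direction with the largest LFC among those called, in the same direction in 10 mice and with at least 5 CPM, the 5 per direction with the largest difference in mean CPM, the 5 smallest p across groups, and any members of 43 gene lists. Other genes were named after their values were seen. Some genes that this rule names are not reported here. The comparison and the lists were chosen with earlier results of these data known. Lefty1, Gabra6, Hsd11b2, Ucn3, Nmu and Rln3 fell below the count filter. The mice were housed in groups of 4, and which shared an SB was not used.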

Additional observations from a re-analysis of the deposited data

Results flagged for a closer look

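Chance alone would set 1 sample apart in about 1 in 20 groups of values, and of 396 groups of 10 libraries examined, 38 had a library whose gap to its nearest neighbour was large against the whole range (Dixon's test).

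The vHipp library of mouse 30 was set apart most often, and always on the high side. Its levels were 43.4 CPM for Adcyap1, 113.02 CPM for Cacna1g, 53.9 for Cux2, 99.6 for Fibcd1, 146.9 for Mpped1, 1.83 for Ovol2 and 2.21 for Tnnt2, and 556 CPM for the summed ventral pole and subiculum markers. Without mouse 30, 9713 genes passed the adjusted p and 2662 of them at least 2-fold. The mPFC library of the same mouse was high for Cplx2 (1261 CPM), Nrp2 (73.4 CPM) and Nr2f2 (21.8 CPM).

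The mPFC library of mouse 24 was low for Deptor (31.7 CPM), Htr4 (0.971) and Slc17a6 (5.99) and high for Rasgef1c (42.6), Ttr (10.7) and Vip (98.1), and its vHipp library was low for Tbr1 (30.8). The mPFC library of mouse 22 was high for Mbp (2940.4 CPM) and for the summed oligodendrocyte markers (6834), high for Actb (1197), low for C1ql3 (154) and low for the summed amygdala and entorhinal markers (593), and its vHipp library was high for Pvalb (32.2).

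In the mPFC, mouse 35 was high for Ccn2 (31.2 CPM) and Chodl (1.36), mouse 29 for Iyd (0.757) but low for Pecam1 (0.237), mouse 28 was high for Btg2 (19.9), mouse 27 was low for Slc17a7 (1259.6), and mouse 39 was high for Myh2 (14.04) and Tmem232 (10.96). In the vHipp, mouse 38 was high for Drd1 (7.68 CPM), Eomes (0.435) and Ttr (7.77), mouse 35 for Wfs1 (108.7), mouse 33 for Trbc2 (1.93) and mouse 39 for A830009L08Rik (0.481).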

How the results depend on the processing

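Counts of genes that differed in saline CTRL mice stayed within 1.5 times of the reported ones in all settings run, apart from a log2 fold threshold of 2, which 3.93% of the genes tested passed, against 9.92% at 2-fold. Without the pairing by mouse (no replicate block), 8800 genes passed instead of 10037, 2801 of them at least 2-fold, 5699 passed in all groups instead of 6461, and the test of equal regional differences gave 0 genes by edgeR, with 1433 at an unadjusted p under 0.05. Without CSDS ketamine mouse 11, 8910 genes passed in that group instead of 9035 and 0 instead of 4 passed in the opposite direction. Leaving out each mouse in turn gave 9223 to 10023 genes, and 9.51% to 10.00% of those tested at 2-fold.

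Of 185 single genes examined under these settings, none of those called reversed, and 12 changed their side of the threshold in at least 1. Without the block, C1ql3, Pecam1 and Pou3f1 lost their calls, as did Nr2f1 and Pou3f1 in the fit of all groups. Calls of mt-Co1 were lost without the block, in the fit of all groups, and without mouse 24, 28, 29 or 38 or mice 22, 24 and 30 together. Slc17a7 lost its call without mouse 22, 24, 28 or 39, and Eomes without the block, by DESeq2, with no filter, in the fit of all groups and without mouse 35, 38 or mice 22, 24 and 30. Rpl13 lost its call in 11 settings. Camk2a and Sst passed without mouse 30, Ttr without mouse 38, as given beside them, and Slc17a6 without mice 22, 24 and 30 (LFC = -0.997). Calls of 6 of 43 gene lists moved by over 1.5 times in a setting. In the fit of all groups 7 perineuronal net and matrix genes, 3 OPC markers (as without the block) and 5 meningeal markers (as without mice 22, 24 and 30) passed, 5 astrocyte markers and 4 reference genes passed without mouse 33, 1 reference gene passed without the block and in several other settings, and 1 ependymal marker passed with filterByExpr. The cause was not tested. Genes near 0 counts in a region, such as Dmrt3, Gm765 and Chodl, are limited by depth, and their folds are imprecise.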

Other observations

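Marker sums differed among mice within a region in ways that no comparison above used, and these were noticed after the values had been seen. In the vHipp, the libraries with the lowest dentate gyrus sums were those of mice 22, 39 and 27 (659, 716 and 758 CPM), and the same libraries had the highest CA3 sums (1275, 1142 and 1424 CPM). Mouse 33 had the lowest CA3 sum (671 CPM) with a dentate gyrus sum of 1459. In the mPFC, mouse 24 had the highest sum of layers 2 to 4 (1175 CPM) and the lowest of layer 5 (499) and of layers 6 and 6b (297). The layer 5 and layer 6 lists share 1 gene, Crym. The exact place of each punch was not used here.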
